A study of Mus musculus with 12 samples.

Results

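Papillary fibroblasts, the CD26+ cells of the upper dermis, were compared with Dlk1- Sca1+ cells, which the labels name pre-adipogenic fibroblasts. The comparison rested on 6 of the 12 arrays of the study, chosen by their labels, with 3 arrays for each population. Each array held RNA of one population from one animal, and the animals were 3 female littermates aged 2 days. The strain and genotype of the mice are not given in the sources used here. Per the labels' protocols, the layer under the dermis had been removed before digestion, and both populations were sorted as cells with Pdgfra and CD34 at the surface and without CD45, CD117, CD31 and EpCam. The papillary gate took CD26+ cells without Dlk1 or Sca1, and the other gate took Sca1+ cells without CD26 or Dlk1. Both populations were freshly sorted, so a difference between them combines their position in the skin with the surface proteins used to sort them. The other 6 arrays, of Dlk1+ reticular fibroblasts and of Dlk1+ Sca1+ pre-adipogenic fibroblasts of the same animals, served for the estimate of spread and as a reference for levels.

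The dermis of newborn mice is built by fibroblasts of distinct lineages. Papillary fibroblasts lie under the epidermis, receive Wnt and other signals from keratinocytes, and give rise to the fibroblasts around hair follicles. Cells of the deeper dermis that carry Sca1 include precursors of the fat cells of the skin, which form under control of Pparg and its partners and are known to be held back by active Wnt signalling. Dlk1, a membrane protein of the Notch ligand family that restrains fat cell formation, and Sca1 together divide the deeper cells into stages.

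Levels are log2 RMA values as deposited. The arrays of one population are given in the order of animals 1, 2 and 3. Differences are log2 values, papillary minus Dlk1- Sca1+, with limma's standard error (SE) and n = 3 animals for each population, so a positive difference means higher in papillary cells. A gene was called where limma's p, adjusted by Benjamini-Hochberg over all 17097 genes, was under 0.05. In sorted populations a lower level can come from fewer cells that carry the transcript or from less transcript per cell, and these cannot be told apart. Array medians ran from 6.21 to 6.34 over the 12 arrays.

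The sorting genes and the marker genes of the comparison were read first. Dpp4, which encodes CD26, was at 10.97, 10.18 and 10.69 in the papillary arrays and at 6.14, 6.49 and 6.49 in the Dlk1- Sca1+ arrays, a difference of 4.24 ± 0.17 (adjusted p = 1.54e-09). Dlk1 was at 9.82, 10.10 and 9.99 in papillary cells and at 11.18, 11.45 and 11.54 in Dlk1- Sca1+ cells, and differed by -1.42 ± 0.10. The values did not overlap for either gene, and the Dlk1 transcript was bright in both populations although both were sorted as Dlk1 negative at the surface. Cd34 lay between 9.85 and 10.09 in the 6 arrays (0.010 ± 0.10, adjusted p = 0.968), and Pdgfra differed by 0.38 ± 0.27 (adjusted p = 0.371, with 0.0229 in the 6 arrays alone with the animal as a block). Ptprc, which encodes CD45, lay between 3.85 and 4.03 in the 6 arrays. The Sca1 transcript, Ly6a, was not analysed here.

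The other marker genes named with the comparison lay on both sides. Chodl, a membrane lectin, was at 10.49, 10.21 and 10.65 in papillary cells and at 5.16, 4.93 and 5.0 in Dlk1- Sca1+ cells, 42.8-fold apart. Cyp1b1, a cytochrome P450 of the endoplasmic reticulum that oxidises steroids, retinoids and foreign compounds, was at 4.88, 4.81 and 4.67 in papillary against 11.24, 11.29 and 11.16 in Dlk1- Sca1+ cells, and was 87-fold lower in papillary cells. Adamts18, a secreted protease, was at 4.44, 4.88 and 4.51 against 10.46, 10.42 and 10.15, and was 53.2-fold lower. Folds are those of the deposited values. Where the lower population lies at or below the array median, as for Chodl, Cyp1b1 and Adamts18 and for Fabp4, Grem1, Fgfr4, Fzd4 and Tek below, that level has no detection call to set it apart from background, so the fold is approximate. Arrays of one population lay close together for each of these genes beside the distance between populations. These values describe the comparison with which the genes were named and are no test of it.

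Among the 6 arrays compared, the Dlk1- Sca1+ array of animal 1 stood apart for markers of keratinocytes. The papillary array of animal 2 did so for those of hair follicles. The Dlk1- Sca1+ array of animal 1 held the highest of all 12 values for 23 of 24 measured markers of basal keratinocytes, for 12 of 23 suprabasal and for 10 of 19 hair follicle markers. The median basal marker was at 8.53 in that array, at 6.81 and 6.75 in the Dlk1- Sca1+ arrays of animals 2 and 3, and at 6.38, 6.54 and 6.07 in the papillary arrays. Summed on the linear scale, the 24 markers reached 19200 there, against 4520 and 4568 in the other Dlk1- Sca1+ arrays and 3036 to 5650 in papillary arrays. The reticular array of animal 1 had 8486 and the Dlk1+ Sca1+ array of animal 2 had 8334. The keratin gene Krt5 was at 12.10, 9.86 and 9.83 in Dlk1- Sca1+ cells and at 10.92, 8.28 and 8.18 in papillary cells, so that it was bright in both arrays of animal 1. Papillary cells were below Dlk1- Sca1+ cells within each animal for Krt5 (-1.47 ± 0.82, adjusted p = 0.245). A fit with the animal as a block called it (0.0281), as did the block in the 6 arrays alone (0.000474). Krt5 was also called without animal 1 (-1.615 ± 0.37, adjusted p = 0.014) and without papillary replicate 1 (0.0431). Krt14, its partner in basal filaments, was at 10.79, 7.80 and 8.05 in Dlk1- Sca1+ cells against 9.20, 6.91 and 7.06 in papillary cells. Trp63, the basal transcription factor p63, was at 10.08, 7.16 and 6.94 against 6.75, 6.90 and 6.21. The desmosome genes Dsp (11.43, 8.07 and 8.45 against 7.95, 9.54 and 6.19 in papillary cells) and Perp (10.71, 7.46 and 7.17 against 7.66, 8.72 and 5.58) were also highest in the array of animal 1, with the papillary array of animal 2 next for both among the 6. For the 19 markers of the hair follicle keratinocyte list, that papillary array had a median of 6.32 against 5.69 and 5.71 in the other papillary arrays. Their summed linear level was 2839 there against 974.5 and 1047, and it was 4822 in animal 1's Dlk1- Sca1+ array. It was higher still, at 5438, in the Dlk1+ Sca1+ array of animal 2, which served for the estimate of spread. Without the papillary array of animal 2 the median difference of the list was -0.51, and 3897 genes were called. Epcam, whose protein was sorted against, was at 8.62, 6.07 and 5.97 in Dlk1- Sca1+ cells and had a difference of -1.10 ± 0.53 (adjusted p = 0.163).

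**Figure D1:**
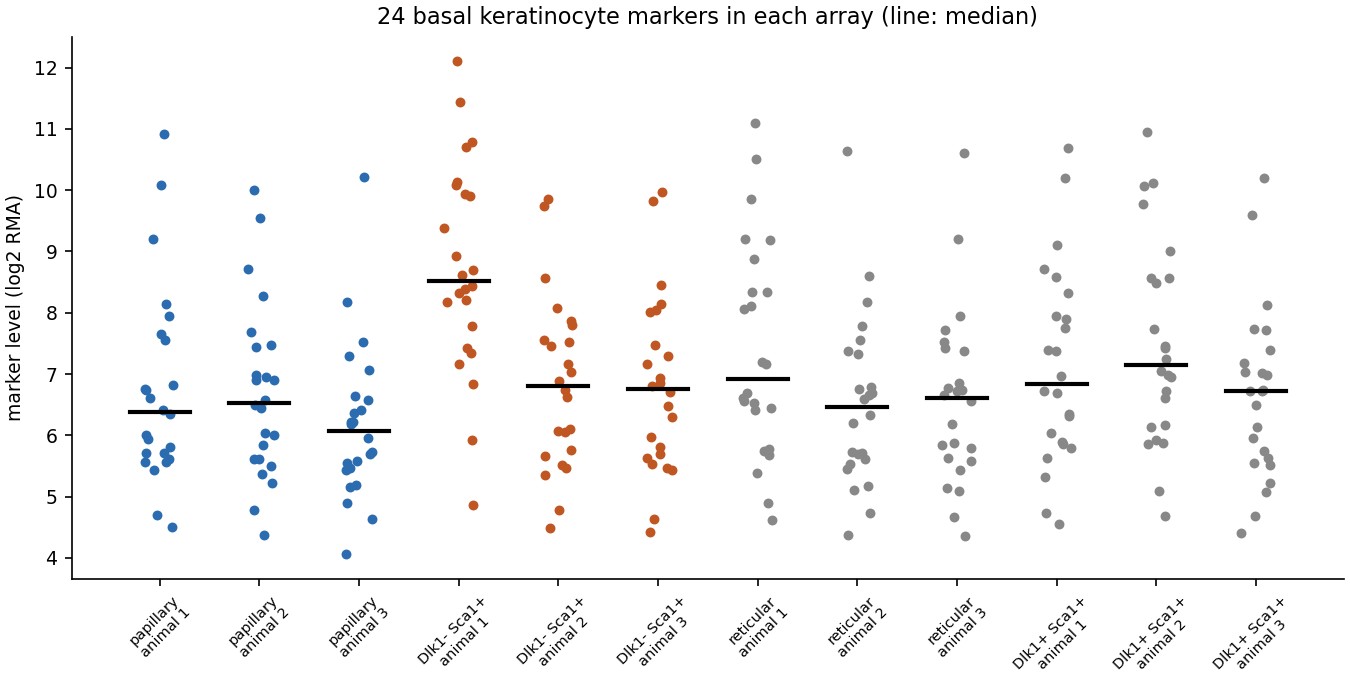
Log2 RMA levels of 24 basal keratinocyte markers (points) in each of the 12 arrays (x axis), with the median of the markers as a line. The median reaches 8.53 in the Dlk1- Sca1+ array of animal 1, while it lies at 6.75 to 6.81 in the other Dlk1- Sca1+ arrays and at 6.07 to 6.54 in the papillary arrays.

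The 15 transcripts with the largest excess in animal 1's Dlk1- Sca1+ array over the other Dlk1- Sca1+ arrays were led by Prr9, Tchh, Dmkn, S100a3, Krt79 and Pkp1, genes of the hair shaft, the inner root sheath and the upper epidermis. Melanocyte genes moved with them: Dct was at 8.98, 7.22 and 6.67 in Dlk1- Sca1+ cells and Pmel at 9.13, 7.36 and 6.56, and Dct differed by -1.69 ± 0.45 (adjusted p = 0.0125, or 0.0744 without animal 2). Of the 24 basal markers, 2 were called lower in papillary cells and 0 higher (8 and 1 at an unadjusted p under 0.05), 5 and 1 with the animal as a block. Without Dlk1- Sca1+ replicate 2 and replicate 3, 5 and 6 were lower. With animal 1's Dlk1- Sca1+ array left out, the median difference of the basal keratinocyte list went from -1.005 to -0.21, that of the suprabasal list from -0.25 to -0.053, and that of the hair follicle list from -0.217 to -0.023. Itga6 (-1.31 ± 0.22) was called lower in papillary cells with and without it, whereas Cldn1 (-2.55 ± 0.55) kept its call without the array and lost it without animal 1 (adjusted p = 0.0696). Pecam1 (-0.66 ± 0.22, adjusted p = 0.0405) had an adjusted p of 0.162 without the array, Krt10 (-1.24 ± 0.40) one of 0.150, and Tyrp1 (-1.38 ± 0.45), Pmel (-1.40 ± 0.47) and Ptgds (-0.77 ± 0.24) had 0.155, 0.0754 and 0.069. Without the array the difference of Tyrp1 was -0.92 ± 0.42, that of Pmel -0.68 ± 0.25 and that of Ptgds -0.40 ± 0.15. Kit, at 4.95, 4.83 and 4.85 in papillary against 5.16, 4.58 and 4.37 in Dlk1- Sca1+ cells, gained a call (0.40 ± 0.094, adjusted p = 0.00724). Called genes numbered 3995 without it, of which 3820 were among the 4508 called with it and had the same direction. The calls of Pecam1, Krt10, Tyrp1, Pmel and Ptgds were also lost without the papillary array of animal 2 (adjusted p = 0.0764 to 0.16). They were lost as well without papillary replicate 3 (0.069 to 0.128) and, apart from Krt10, without papillary replicate 1 (0.0763 to 0.112). The loss of a call thus did not tell these arrays apart, but the sizes differed. Without papillary replicate 1, 2 or 3, Pmel differed by -1.34, -1.44 and -1.43 and Ptgds by -0.75, -0.77 and -0.79. Tyrp1 then differed by -1.30, -1.41 and -1.43 and Pecam1 by -0.70, -0.67 and -0.62. Without the Dlk1- Sca1+ array of animal 1, Pecam1 differed by -0.475 and Krt10 by -0.82. Krt10 differed by -0.90 and -1.07 without papillary replicate 2 or 3. The part of keratinocyte RNA in the differences of other genes was not tested. Genes named below kept their call without the Dlk1- Sca1+ array of animal 1 or without the papillary array of animal 2 unless said otherwise.

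Over all genes, 4508 of 17097 (26.4%) were called, 2235 (13.1%) higher and 2273 (13.3%) lower in papillary cells. Differences of at least 2-fold were called for 494 higher and 566 lower genes, and of at least 8-fold for 32 and 56. In 4495 of the called genes all 3 animals had the same sign. The 3 values of one population lay wholly above those of the other for 4408 of the called genes, beside 6477 of all genes (37.9%). The median difference of all genes was -0.0033 and their median size 0.137, so medians of gene groups below are to be read against a value near 0, and their counts against the 13.1% of all genes called higher and the 13.3% called lower. Without animals 1, 2 and 3 the count of called genes was 3543, 3189 and 3120.

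**Figure D2:**
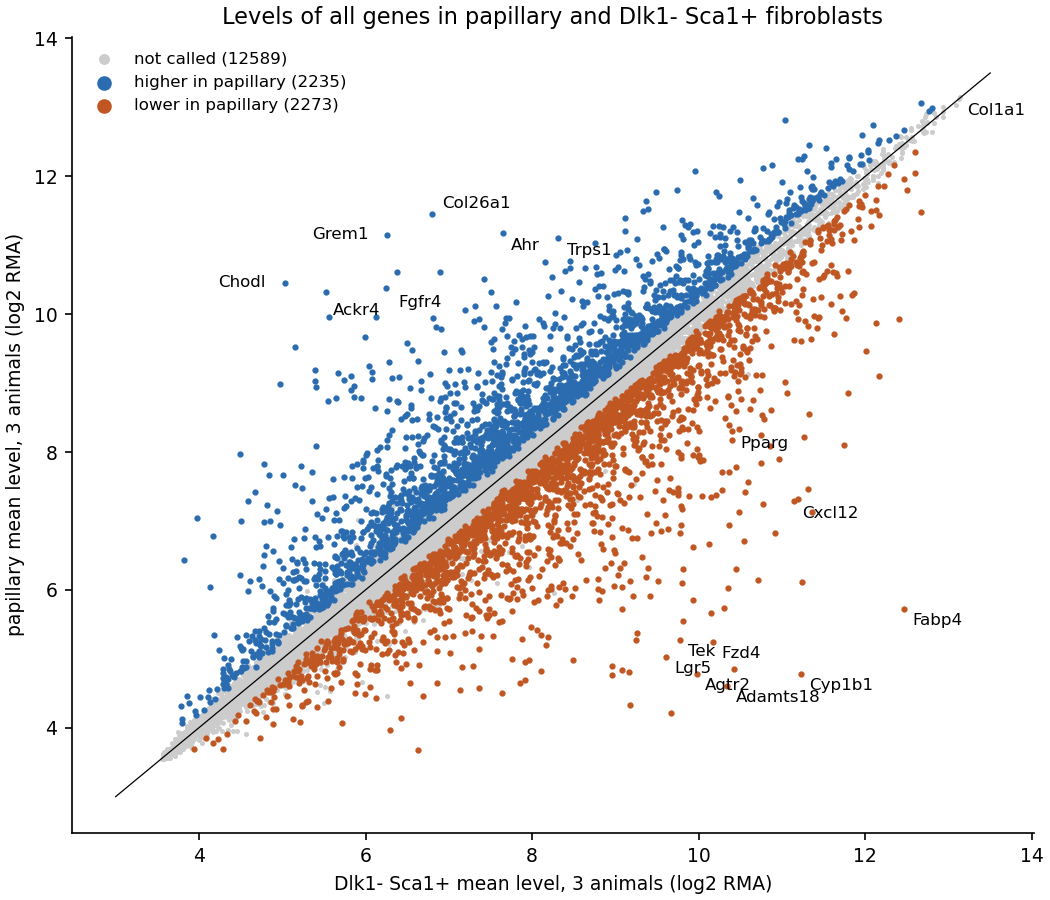
Mean log2 RMA level of 17097 genes over 3 animals in papillary cells (y axis) against Dlk1- Sca1+ cells (x axis), with called genes in colour and the line of equal levels. The 2235 genes higher and 2273 lower in papillary cells spread to both sides, with Chodl and Fabp4 among the farthest from the line, while Col1a1 lies on it.

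Among the genes highest in papillary cells relative to Dlk1- Sca1+ cells were secreted and surface proteins. Grem1, which encodes a secreted antagonist of BMPs, was at 11.25, 11 and 11.19 against 6.20, 6.13 and 6.46, and was 29.5-fold higher. Ackr4 and Ackr3, atypical receptors that bind chemokines and remove them without classical signalling, differed by 4.79 ± 0.21 and 4.02 ± 0.17. Ackr4 was at 10.56, 10.28 and 10.11 against 6.11, 5.41 and 5.07. The populations did not overlap for these genes, which the rule for naming the largest differences required. Col26a1, an extracellular matrix collagen, was at 11.50, 11.49 and 11.35 against 6.48, 6.98 and 6.94. The growth factor receptor gene Fgfr4 was at 10.53, 10.41 and 10.21 against 5.99, 6.32 and 6.41, 17.7-fold higher. Prss35, an inactive serine protease homologue, Fmn2, an actin nucleator of the formin family, and Sytl2, a Rab27 effector in vesicle transport, differed by 4.39 ± 0.27, 4.37 ± 0.30 and 3.83 ± 0.11. The glutamate receptor subunit gene Gria4 (3.72 ± 0.19), the pentraxin gene Nptx1 (3.54 ± 0.20), the heparan sulphate sulphotransferase gene Ndst3 (3.27 ± 0.14), Fgd5 (3.48 ± 0.13), Tspan13 (3.30 ± 0.42) and Elapor2 (3.48 ± 0.10) complete the genes of this size with those described by group below.

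The genes lowest in papillary cells were led by Fabp4, the fatty acid carrier of fat cells, endothelial cells and macrophages. It was at 12.46, 12.51 and 12.44 in Dlk1- Sca1+ cells and at 5.30, 5.17 and 6.71 in papillary cells, 107-fold lower, and animal 3 had the highest papillary value. Plat, tissue plasminogen activator, was at 4.88, 4.93 and 4.73 in papillary cells against 10.37, 10.48 and 10.41. Agtr2, the type 2 receptor of angiotensin, was at 4.73, 4.71 and 4.91 against 9.76, 9.95 and 10.22. None of these values overlapped between the populations, which was again a condition of the rule. Ms4a4d, a membrane protein gene, Akap12, a scaffold for protein kinase A, and Gfra1, a co-receptor for GDNF, differed by -5.46 ± 0.10, -5.12 ± 0.15 and -4.36 ± 0.22. Gfpt2, which starts the hexosamine pathway, was at 6.03, 5.91 and 6.15 against 10.37, 10.23 and 10.47. The sodium channel gene Scn7a (-4.20 ± 0.16) and the matrix proteoglycan gene Prelp (-4.57 ± 0.18) were lower by similar amounts. Lepr, the leptin receptor, was at 8.15, 8.28 and 7.89 against 11.70, 11.79 and 11.76.

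**Figure D3:**
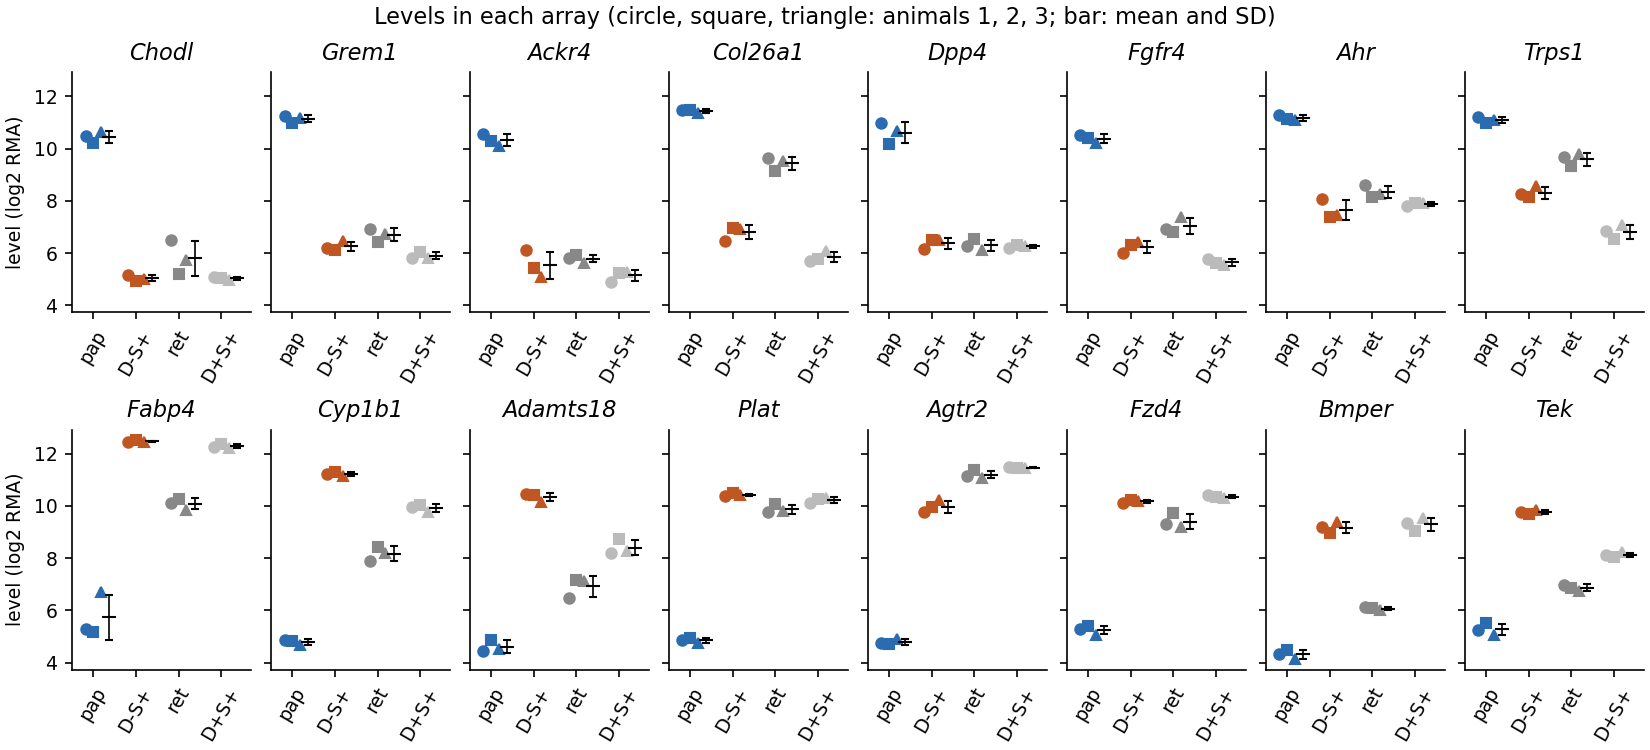
Log2 RMA level of 16 genes in each array, in papillary (pap), Dlk1- Sca1+ (D-S+), reticular (ret) and Dlk1+ Sca1+ (D+S+) cells. Markers give animals 1 to 3 and the bar the mean and SD. The top row holds genes higher in papillary cells and the bottom row genes lower in them, and papillary and Dlk1- Sca1+ values do not overlap in any panel, from 5.42 for Chodl to -6.74 for Fabp4.

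Transcription factors of fat cell formation were lower in papillary cells. Of 30 measured, limma called 21 lower and 0 higher (23 and 0 at an unadjusted p under 0.05), with a median difference of -0.85, beside 13.3% of all genes lower. Pparg, the nuclear receptor that drives fat cell formation, was at 8.34, 8.10 and 8.46 in papillary cells and at 10.37, 10.37 and 10.46 in Dlk1- Sca1+ cells, 4.29-fold lower. Zfp423, a zinc finger protein that raises Pparg in preadipocytes, was at 5.06, 5.39 and 5.52 against 8.07, 8.04 and 8.45. Its relative Zfp521, which is known to restrain fat cell formation, was at 6.01, 6.63 and 6.31 against 9.06, 8.96 and 9.14, so the pair with opposite known roles had the same direction. Ebf2, a factor of preadipocytes, differed by -2.52 ± 0.16, and the nuclear receptor gene Rora by -2.58 ± 0.11. The 3 values of each population were apart for all of these factors. Over the list of 30, the median level was 7.86, 7.925 and 7.815 in papillary and 9.13, 8.955 and 9.15 in Dlk1- Sca1+ cells. It was 9.26, 9.205 and 9.075 in reticular and 9.48, 9.39 and 9.395 in Dlk1+ Sca1+ cells. Papillary cells thus stood apart, and the higher level was not particular to Dlk1- Sca1+ cells.

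Genes of lipid uptake, storage and fat cell products were lower in part. Of 29 measured, limma called 14 lower and 0 higher (16 and 0 at an unadjusted p under 0.05), with a median of -0.44, while with the mean of the probe sets of a gene 1 was called higher. Genes for proteins at the cell surface and a secreted lipase were among those that differed most. Lpl, which frees fatty acids from lipoproteins, was at 8.94, 9.03 and 9.35 in papillary cells and 12.13, 12.16 and 12.21 in Dlk1- Sca1+ cells. Cd36, a fatty acid transporter, was at 5.27, 5.35 and 5.20 against 9.42, 9.20 and 9.12. Aoc3, a surface amine oxidase of fat and smooth muscle cells, was at 5.65, 5.70 and 5.84 against 10.41, 10.16 and 10.34. Papillary values lay below Dlk1- Sca1+ values for each, and Car3, a carbonic anhydrase abundant in fat, differed by -2.96 ± 0.25. Angptl4, an inhibitor of lipoprotein lipase, differed by -0.62 ± 0.19 and lost its call without animal 3, papillary replicate 1 or 3, or Dlk1- Sca1+ replicate 2 or 3 (adjusted p = 0.0792 to 0.267). In contrast, 6 of 19 genes of cholesterol synthesis were called higher by limma and 0 lower (6 and 2 at an unadjusted p under 0.05). With the animal as a block 1 was lower, Idi1, an isomerase early in the pathway (-0.47 ± 0.18, adjusted p = 0.0796, or 0.00181 with the block). The count of lower genes was also 1 with only the 6 arrays, without animal 3 and without Dlk1- Sca1+ replicate 2. Lss, lanosterol synthase, differed by 1.07 ± 0.16 and Dhcr7, the last enzyme of the pathway, by 0.70 ± 0.10.

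Of 10 genes of the insulin-like growth factor system, 5 were lower and 1 higher in papillary cells. The binding proteins Igfbp3, Igfbp4 and Igfbp6, which hold the growth factors in the tissue, were lower, differing by -3.52 ± 0.19, -2.47 ± 0.076 and -1.97 ± 0.15. Igfbp3 was at 7.22, 7.74 and 6.77 against 10.56, 10.90 and 10.84, with no overlap. The ligand gene Igf1 differed by -0.56 ± 0.10, in the same direction. Igfbp2, another binding protein gene (0.80 ± 0.21), was the one called higher, and its adjusted p was 0.111 without animal 1.

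**Figure D4:**
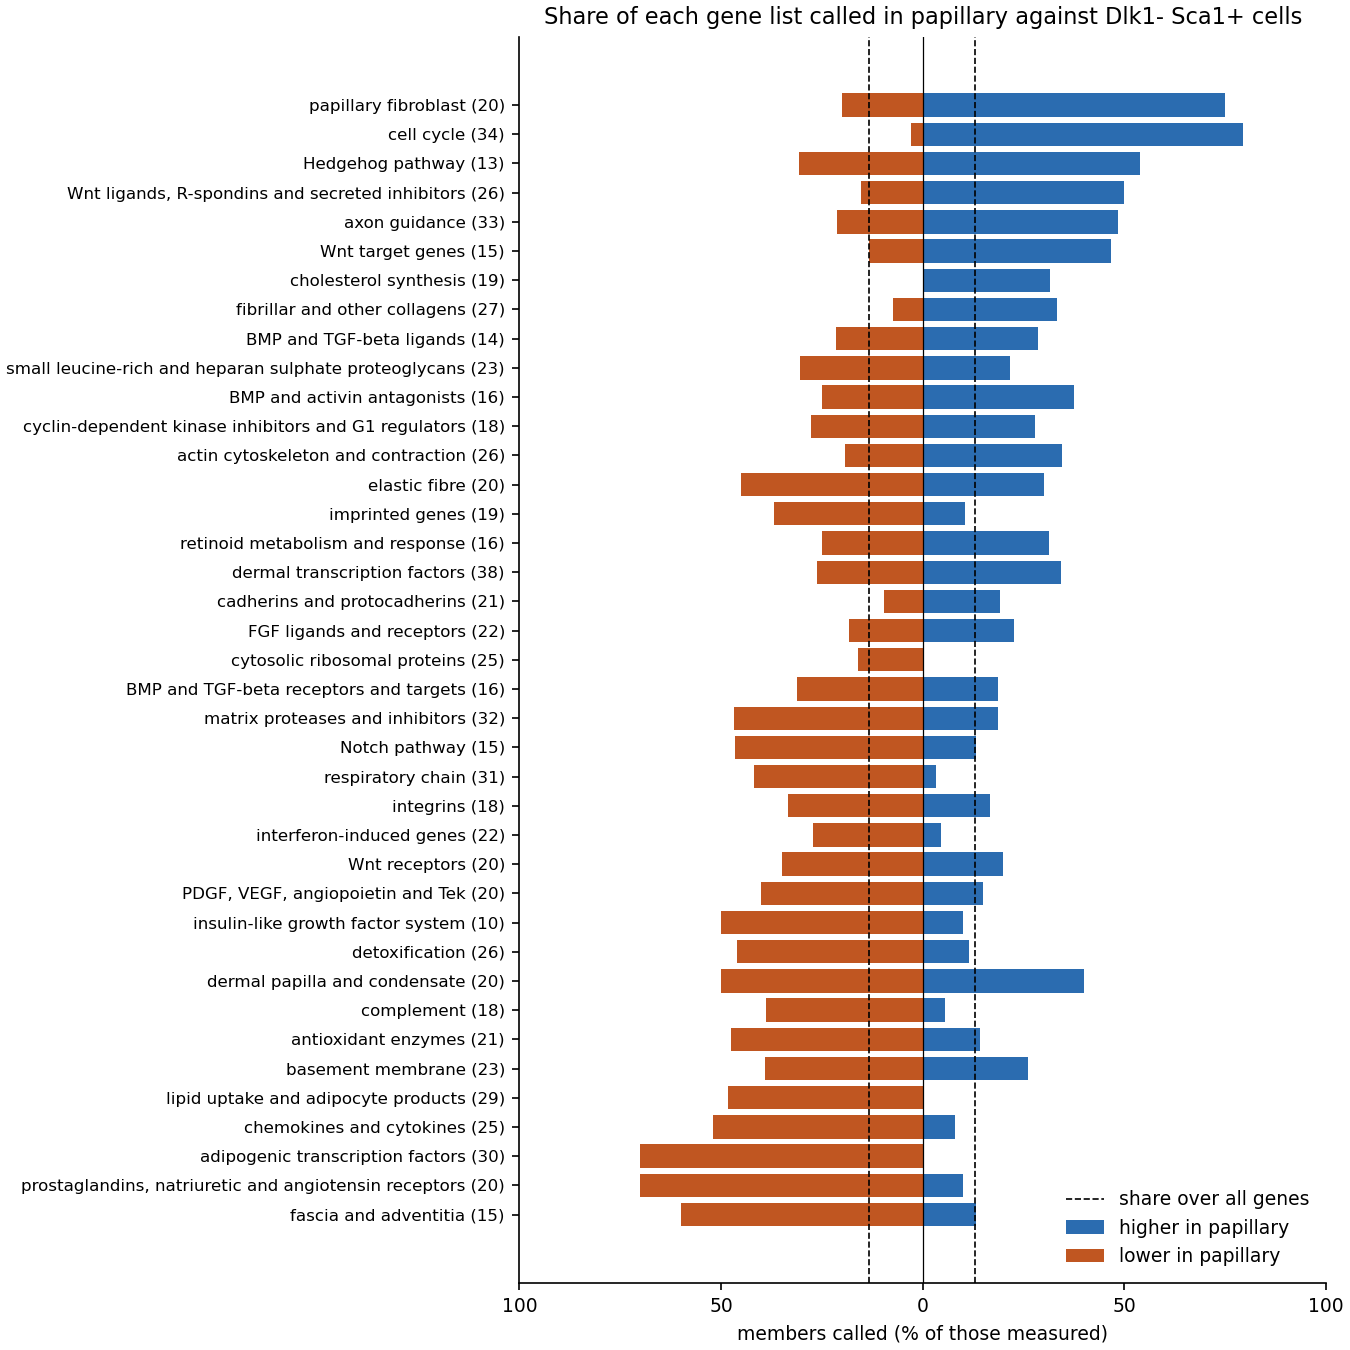
Share of the measured members of each list of fibroblast, pathway and function genes (number in brackets; lists of markers of other cell types are not drawn) called higher (right) or lower (left) in papillary than in Dlk1- Sca1+ cells, with dashed lines at the shares over all genes (13.1% and 13.3%). Lists are ordered by median difference, from papillary fibroblast genes at the top (1.57) to fascia and adventitia genes at the bottom (-0.96).

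Genes known from papillary fibroblasts were mostly higher in the CD26+ cells than in Dlk1- Sca1+ cells. The median level of the list was 9.69, 9.44 and 9.31 in papillary and 7.825, 7.71 and 7.855 in Dlk1- Sca1+ cells. It was 8.995, 8.475 and 9.035 in reticular and 7.405, 7.325 and 7.42 in Dlk1+ Sca1+ cells. Reticular cells thus also lay above both Sca1+ populations. Of 20 measured, 15 were called higher and 4 lower, with a median difference of 1.57, beside 13.1% of all genes higher. Entpd1, the ectonucleotidase CD39, was at 9.70, 9.41 and 9.33 against 6.48, 6.47 and 6.74. Trps1, a GATA-type repressor, was at 11.22, 10.98 and 11.11 against 8.25, 8.13 and 8.57, and Crabp1, a carrier of retinoic acid, differed by 2.08 ± 0.23. Papillary values of each were above those of Dlk1- Sca1+ cells. The genes of the list that went the other way were Col18a1 (-1.95 ± 0.10), which encodes a basement membrane collagen, Pdpn (-1.49 ± 0.10), podoplanin, Fap (-1.39 ± 0.10), a surface protease, and Ptgds (-0.77 ± 0.24), whose call was lost without the Dlk1- Sca1+ array of animal 1.

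Genes used as markers of fascia and adventitia fibroblasts had the opposite balance, with 9 of 15 lower and 2 higher and a median of -0.96. Ptx3, a secreted pattern recognition protein, differed by -2.91 ± 0.13, Efemp1, a fibulin, by -2.51 ± 0.16, and Procr, the protein C receptor, by -1.55 ± 0.20. Ackr3, listed among these markers, was called in the other direction, at 8.75, 8.78 and 9.44 against 5.01, 4.79 and 5.12. The second gene called higher, Sema3c, differed by 0.46 ± 0.10 and had an adjusted p of 0.0752 without animal 1. Of 19 genes that fibroblasts share, 6 were called higher and 3 lower (31.6% and 15.8%, beside 13.1% and 13.3% of all genes). Their median difference was 0.12, and they ran from -1.05 for S100a4 to 1.46 for Twist1. Some bright members were named because their differences were small. Of these, Col1a1 differed by 0.0067 ± 0.062, Dcn by 0.12 ± 0.063 (called with limma's trend in variance), Vim by 0.043 ± 0.061 and Prrx1 by 0.083 ± 0.067.

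Wnt signalling genes were called in both directions. Among ligands, R-spondins and secreted inhibitors, 13 of 26 were called higher and 4 lower, with a median of 0.35. Rspo3 and Rspo1, secreted proteins that strengthen Wnt signals by keeping receptors at the surface, were at 9.0, 8.63 and 8.72 against 5.70, 5.51 and 5.72 and at 7.24, 7.25 and 7.39 against 4.63, 4.46 and 4.69. The Wnt inhibitor gene Dkk2 was at 9.01, 8.35 and 8.84 against 5.42, 5.66 and 5.57. Activators and an inhibitor of the pathway were thus higher in the same cells. Dkk3 (1.64 ± 0.10), Wif1 (0.77 ± 0.16) and the ligand gene Wnt11 (0.71 ± 0.14) were also higher. The ligand genes Wnt5b (-1.02 ± 0.12), Wnt2 (-0.96 ± 0.12) and Wnt9a (-0.85 ± 0.15) were lower. Wnt5a differed by 0.86 ± 0.23, and its adjusted p was 0.107 without animal 3.

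Wnt receptors included the largest Wnt differences in the other direction. Of 20 measured, 7 were called lower and 4 higher, and the count of higher genes was 2 without animal 1, animal 2, animal 3 or papillary replicate 2. Fzd4, a Frizzled receptor for Wnts and for norrin, was at 5.28, 5.39 and 5.07 in papillary and 10.10, 10.22 and 10.20 in Dlk1- Sca1+ cells, 30.4-fold lower. Lgr5 and Lgr4, receptors of R-spondins, were at 4.73, 5.33 and 5.04 against 9.54, 9.53 and 9.74 and at 6.0, 5.99 and 6.38 against 9.65, 9.27 and 9.60. Rspo3 and Rspo1 were thus higher and the receptor genes Lgr5 and Lgr4 lower in papillary cells, with no overlap for any of them. Lrp5, a Wnt co-receptor, differed by -0.83 ± 0.089, and Ror1, a receptor for Wnt5a, was higher by 1.14 ± 0.17.

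Of 15 common targets of canonical Wnt signalling, 7 were higher and 2 lower. Axin2, Lef1, Tnfrsf19, Apcdd1 and Nkd2 are also in the list of papillary fibroblast genes above, and Lgr5 in that of Wnt receptors. The counts of these lists therefore overlap. Axin2, a feedback inhibitor read as a measure of the pathway, was at 9.68, 9.47 and 9.29 against 7.38, 7.09 and 6.97. Lef1, a nuclear partner of beta-catenin, was at 7.42, 7.38 and 7.06 against 6.04, 5.11 and 4.93, with the Dlk1- Sca1+ array of animal 1 the highest of its population. Tnfrsf19 (2.80 ± 0.21), Apcdd1 (2.27 ± 0.16), Nkd2 (2.23 ± 0.12) and Nkd1 (1.65 ± 0.17) were higher too, the last 3 being inhibitors that the pathway induces. The genes called lower were Lgr5 and Znrf3 (-0.47 ± 0.13), and Znrf3 had an adjusted p of 0.0645 without animal 1, 0.0975 without animal 3 and 0.0531 without the Dlk1- Sca1+ array of animal 1.

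BMP antagonists were called in both directions, 6 of 16 higher and 4 lower. Besides Grem1, its relative Nbl1 was higher, at 10.28, 10.32 and 10.36 against 7.54, 7.48 and 7.51. Bmper, a secreted BMP modulator, was lower, at 4.33, 4.49 and 4.15 against 9.20, 8.95 and 9.37, and so was Chrdl1, a chordin-like antagonist, at 5.71, 5.95 and 5.88 against 7.96, 7.93 and 8.33. Each population thus carried its own antagonist genes, with no overlap of values. Twsg1 was higher by 0.73 ± 0.069 and Chrd by 0.50 ± 0.10. Smad7, an inhibitor inside the cell, was lower, differing by -1.53 ± 0.19. Noggin, encoded by Nog, differed by 0.52 ± 0.13, and its adjusted p was 0.0609 without animal 1 and 0.0989 without animal 2.

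Of 14 ligands of the BMP and TGF-beta family, 4 were higher and 3 lower. Bmp4 was at 8.71, 8.93 and 8.93 against 7.43, 6.86 and 7.01, and Inhba, a subunit of activin A, was higher by 1.27 ± 0.25. Tgfb2 (-0.93 ± 0.11), Bmp6 (-0.91 ± 0.15) and Gdf10 (-1.03 ± 0.18) were lower. Among receptors and targets, 3 of 16 were higher and 5 lower, and the related target genes Id2 (1.29 ± 0.10) and Id3 (-1.12 ± 0.11) differed in opposite directions. The TGF-beta target gene Tgfbi was at 10.92, 10.68 and 10.96 against 8.98, 8.86 and 9.18, above in all 3 animals.

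Hedgehog pathway genes were called for 11 of 13 members, 7 higher and 4 lower. The genes called lower were those that Hedgehog signals commonly induce, together with Gli2. Gli1, a transcription factor and target of the pathway, was at 8.27, 8.20 and 7.95 against 9.34, 9.27 and 9.42. Ptch1, the receptor and feedback target, was at 10.35, 10.41 and 10.56 against 10.88, 10.93 and 11.10, and Hhip, a ligand-binding inhibitor, differed by -0.90 ± 0.088 and Gli2 by -1.06 ± 0.077. The co-receptor genes Gas1 (1.20 ± 0.088), Cdon (1.11 ± 0.10) and Boc (1.02 ± 0.085) and the ligand exporter gene Disp1 (1.66 ± 0.13) were higher. Co-receptors and targets therefore had opposite directions.

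Of 15 Notch pathway genes, 7 were called lower and 2 higher, with a median of -0.22. Jag1, a membrane ligand, was at 6.77, 7.40 and 7.09 against 9.75, 9.68 and 9.37. The receptor gene Notch1 differed by -1.47 ± 0.14. The target genes Heyl and Hes1 were at 5.53, 5.85 and 5.27 against 9.89, 10.02 and 9.54 and at 7.37, 7.43 and 7.62 against 9.82, 9.80 and 9.65. A ligand, a receptor and targets were thus lower together, and Nrarp, another target, differed by -1.19 ± 0.27. Lfng (0.60 ± 0.13) and Rfng (0.70 ± 0.10), sugar transferases that modify Notch, were higher. Notch3 (-0.51 ± 0.12) had an adjusted p of 0.0902 without animal 1.

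**Figure D5:**
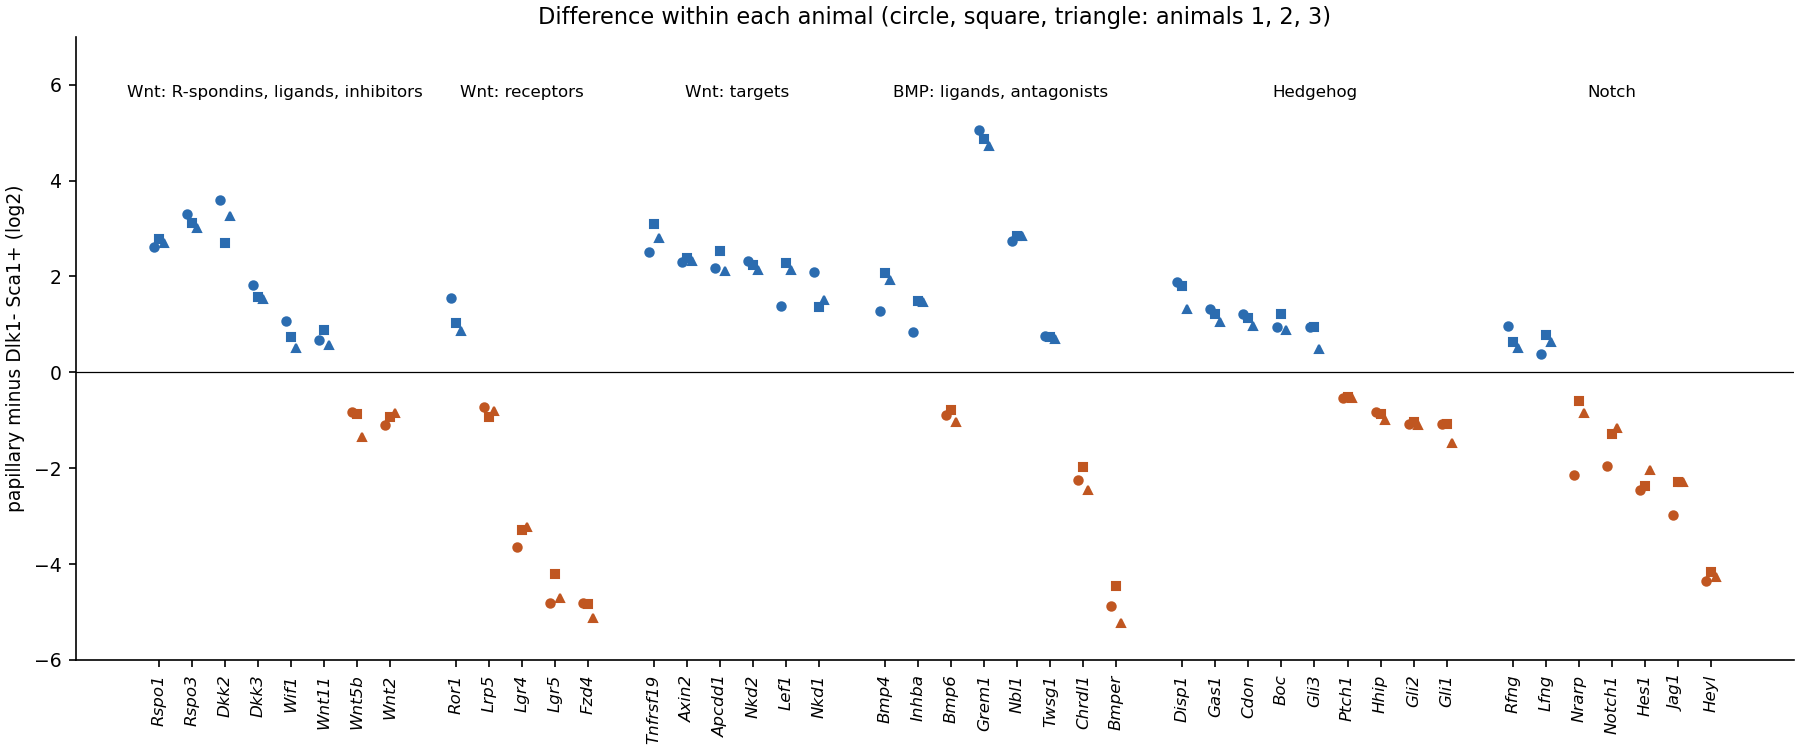
Papillary minus Dlk1- Sca1+ log2 difference of genes of the Wnt, BMP, Hedgehog and Notch pathways within each of 3 animals, in blue where called higher and in orange where called lower. Grem1 (4.88) and Bmper (-4.85), and Rspo1 (2.70) and Lgr5 (-4.57), have opposite signs in every animal.

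Fibroblast growth factor genes were called higher in 5 and lower in 4 of 22 cases (22.7% and 18.2%, beside 13.1% and 13.3% of all genes), with a median of -0.050 and with 2 higher without animal 2. Besides the receptor gene Fgfr4, the ligand gene Fgf18 was at 9.06, 9.06 and 9.35 against 7.36, 7.43 and 7.74. Fgf10 and Fgf7, ligands that act on epithelia, were lower, differing by -1.57 ± 0.11 and -0.65 ± 0.11. Fgf10 was at 6.19, 6.34 and 6.53 against 7.78, 7.96 and 8.04. The inhibitor gene Spry4 was lower, differing by -1.03 ± 0.12 and the decoy receptor gene Fgfrl1 by -0.74 ± 0.10.

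Growth factors of blood vessels and their receptors numbered 20, with 8 lower and 3 higher. The count of lower genes was 5 without animal 3, and that of higher genes was 1 without animal 2, papillary replicate 1, papillary replicate 3 or Dlk1- Sca1+ replicate 2. Tek, the receptor of angiopoietins, was at 5.26, 5.50 and 5.07 against 9.77, 9.68 and 9.86, 22.5-fold lower in papillary cells. Vegfd, a ligand for lymphatic vessels, was at 6.02, 6.89 and 6.54 against 9.05, 9.33 and 9.56, and Vegfa differed by -1.50 ± 0.092. Pdgfd, a ligand of PDGF receptors, went the other way, at 9.11, 8.78 and 9.18 against 5.15, 5.20 and 5.84. All these values were apart. Of the 20 markers of endothelial cells, which were sorted against, 3 were called higher and 2 lower (15% and 10%, near the 13.1% and 13.3% of all genes), with a median of -0.10. The endothelial count of lower genes was 1 without animal 1 or 3, without any 1 papillary array, or without Dlk1- Sca1+ replicate 1 or 3, and that of higher genes was 1 without animal 1 or 2. Tek is itself among the endothelial markers called lower, so that count is not apart from its difference. The part of endothelial RNA in the Tek difference was not tested.

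Fibrillar and other collagen genes that were called were mostly higher in papillary cells, 9 of 27 against 2 lower. Col7a1, which forms the fibrils that anchor the epidermis, was at 11.34, 11.16 and 11.12 against 8.88, 9.15 and 9.30. Col27a1 (1.65 ± 0.16), Col23a1 (1.58 ± 0.13) and Col16a1 (1.39 ± 0.090) were higher. The fibrillar collagen genes Col5a3 and Col11a1 were lower, Col5a3 at 6.97, 7.24 and 7.17 against 11.37, 11.49 and 11.23 and Col11a1 by -2.94 ± 0.18. The main dermal collagen gene Col1a1 was at 13.13, 13.12 and 13.13 against 13.06, 13.16 and 13.14, with a difference of 0.0067 ± 0.062 near the top of the array's range, while Col1a2 was higher by 0.73 ± 0.083.

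Basement membrane genes were split within one family. Of 23 measured, 6 were higher and 9 lower, with a median of -0.39. The type IV collagen genes Col4a5 and Col4a6, which lie side by side and encode chains of one network, were at 9.51, 8.92 and 9.12 against 6.02, 4.90 and 5.27 and at 9.85, 9.48 and 9.67 against 6.07, 5.94 and 5.97. Col4a1 and Col4a2, which encode the widespread chains, were lower, differing by -1.19 ± 0.061 and -1.82 ± 0.086. The pairs thus differed in opposite directions, without overlap of values. Lamc3, a laminin chain, was higher by 1.51 ± 0.13, Hspg2, perlecan, by 1.47 ± 0.10, and Smoc2 by 1.60 ± 0.13. Col15a1 (-2.25 ± 0.14), Nid1, a linker of laminin and collagen (-1.57 ± 0.080), and Lamc1 (-1.22 ± 0.12) were lower. Lama3 differed by -1.25 ± 0.57 and is also a keratinocyte gene, at 8.39, 5.52 and 5.54 in the Dlk1- Sca1+ arrays, so it was brightest in the array of animal 1. It was not called (adjusted p = 0.139), except without Dlk1- Sca1+ replicate 2 (adjusted p = 0.0492).

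Elastic fibre genes numbered 9 lower and 6 higher of 20. Mfap5, a microfibril protein, was at 6.86, 7.35 and 7.75 against 11.16, 11.30 and 11.13, and Ltbp2, which binds fibrillin, was lower, differing by -2.39 ± 0.18. Fbn2, a fibrillin of growing tissue, was higher by 1.35 ± 0.12 and Loxl3, a cross-linking enzyme, by 0.73 ± 0.11. Among 23 proteoglycan genes, 5 were higher and 7 lower. Prelp was at 6.45, 6.34 and 5.64 against 10.54, 10.90 and 10.71, and Kera, keratocan, and Fmod, fibromodulin, were lower, differing by -1.74 ± 0.22 and -1.05 ± 0.13. Gpc6, a membrane glypican, was higher by 2.23 ± 0.089, Sdc2, a syndecan, by 1.19 ± 0.092 and Lum, lumican, by 1.01 ± 0.071.

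Of 32 matrix proteases and their inhibitors, 15 were lower and 6 higher. After Adamts18 and Plat, the metalloprotease genes Adamts12 (-2.67 ± 0.079), Adam23 (-2.16 ± 0.18) and Mmp19 (-1.91 ± 0.11) had the largest differences among the genes lower in papillary cells. Adam23 encodes a protein without protease activity. Mmp16, a membrane-bound metalloprotease gene, was at 9.35, 9.17 and 9.31 against 7.50, 7.70 and 7.86, above in all animals, and Mmp14 was higher by 0.43 ± 0.078.

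Chemokine and cytokine genes were lower in 13 of 25 cases, with a median of -0.63. The 2 members called higher were the scavenging receptors Ackr4 and Ackr3, and no ligand gene of the list was called higher. Cxcl12, a ligand that ACKR3 binds, was at 7.37, 7.09 and 7.39 in papillary cells and at 11.11, 11.06 and 11.26 in Dlk1- Sca1+ cells, 14.5-fold lower. Ccl19, a ligand that ACKR4 binds, was at 6.83, 6.81 and 6.85 against 9.42, 9.51 and 9.34. In both cases the receptor was higher and the ligand lower in the same cells, in all 3 animals. Ccl7, a chemokine for monocytes, was at 5.63, 5.67 and 5.69 against 10.18, 10.03 and 10.23. Cxcl10, induced by interferon, differed by -2.15 ± 0.17, and Il6, an inflammatory cytokine, by -1.89 ± 0.27. Of 19 markers of immune cells 2 were called lower (0 without animal 3 or papillary replicate 1, and 1 without animal 1, animal 2, papillary replicate 3 or Dlk1- Sca1+ replicate 3), with a median of -0.14, and the part of immune cell RNA in the chemokine differences was not tested.

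Among 18 complement genes, 7 were lower and 1 higher. C1s1, a first protease of the classical pathway, was at 4.63, 4.92 and 4.98 against 9.12, 8.93 and 9.17, lower with a difference of -4.23 ± 0.14. Its partner protease C1ra was lower as well, with a difference of -2.77 ± 0.19. Clu, clusterin (-1.66 ± 0.29), C2 (-1.23 ± 0.24) and Serping1, the inhibitor of C1 (-1.18 ± 0.11), were lower as well. Masp1, of the lectin pathway, was the gene called higher (1.30 ± 0.16). Of 22 genes induced by interferon, 6 were lower and 1 higher, or 2 higher with the animal as a block. Ifi204 was at 3.77, 3.65 and 3.61 against 6.68, 5.97 and 7.24, while Ifit2 differed by 1.90 ± 0.19 in the other direction.

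Immediate early genes, whose transcripts rise within minutes of a stimulus or of cell isolation, were lower in papillary cells in 14 of 22 cases, with a median of -0.56. With limma's trend in variance 1 was higher. Fosl1, an AP-1 subunit, was at 7.24, 7.50 and 7.29 against 10.44, 10.09 and 9.92. Nr4a3 (-1.31 ± 0.13), Socs3 (-1.19 ± 0.11), Nr4a1 (-1.13 ± 0.10) and Junb (-0.92 ± 0.089) were also lower. Several genes of other groups named here, among them Il6, Ptgs2 and Hmox1, are known to respond to stimulation too, and the part of cell isolation in these differences was not tested.

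Of 26 detoxification genes, 12 were lower and 3 higher, beside 13.3% and 13.1% of all genes. The aryl hydrocarbon receptor system stood on both sides. Ahr, a transcription factor activated by planar aromatic ligands, was at 11.29, 11.13 and 11.11 in papillary cells and at 8.08, 7.39 and 7.47 in Dlk1- Sca1+ cells, 11.6-fold higher. Ahrr, its repressor and target, was at 9.09, 8.88 and 8.89 against 5.67, 5.95 and 5.96. Cyp1b1, a known target of the receptor, had the opposite direction, at 4.88, 4.81 and 4.67 against 11.24, 11.29 and 11.16. The receptor and its repressor were thus high where Cyp1b1 was low, in all 3 animals. Cyp1a1, another known target, was at 4.49, 4.54 and 4.45 against 4.51, 4.68 and 4.66 (-0.12 ± 0.091, adjusted p = 0.405), near the low end of the scale, and Nqo1 differed by 0.18 ± 0.088 (adjusted p = 0.184). With the animal as a block the adjusted p of Nqo1 was 0.0493. Cyp1a1 and Nqo1 were chosen after their values were seen.

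The 250 bases before the RefSeq start of Cyp1b1, Ahrr and Cyp1a1 are shown to set these targets beside each other, since they are known targets of which Cyp1b1 is lower, Ahrr higher and Cyp1a1 not called here. They were read from RefSeq promoter windows of GRCm38.p6, 5′ to 3′ on the strand of the gene. Capitals mark GCGTG or its reverse complement CACGC, the core that the receptor and its partner recognise, searched on both strands. The windows are Cyp1b1 at chr17:79715062-79715311 on the minus strand, Ahrr at chr13:74292332-74292581 on the minus strand and Cyp1a1 at chr9:57697363-57697612 on the plus strand.
Cyp1b1: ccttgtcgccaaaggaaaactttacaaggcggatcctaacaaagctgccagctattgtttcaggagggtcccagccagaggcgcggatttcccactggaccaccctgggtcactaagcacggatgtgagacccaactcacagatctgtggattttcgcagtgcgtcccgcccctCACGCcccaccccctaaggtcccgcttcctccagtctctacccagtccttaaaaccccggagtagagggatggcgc
Ahrr: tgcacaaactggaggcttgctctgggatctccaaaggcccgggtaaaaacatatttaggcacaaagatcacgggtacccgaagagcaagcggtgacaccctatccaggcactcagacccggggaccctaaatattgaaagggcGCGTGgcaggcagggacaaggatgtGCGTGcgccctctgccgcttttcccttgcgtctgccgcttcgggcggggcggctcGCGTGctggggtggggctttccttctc
Cyp1a1: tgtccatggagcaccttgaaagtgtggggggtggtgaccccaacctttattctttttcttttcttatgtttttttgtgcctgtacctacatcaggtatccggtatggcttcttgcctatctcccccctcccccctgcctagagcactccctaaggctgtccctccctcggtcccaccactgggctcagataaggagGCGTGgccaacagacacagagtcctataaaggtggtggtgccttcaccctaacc

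The Cyp1b1 window held 1 match, with its first base 76 bases before the start, the Cyp1a1 window 1 at 54 bases, and the Ahrr window 3, at 107, 82 and 27 bases. Of 32851 such windows in the table, 9250 (28.2%) held at least 1 match and 911 (2.77%) held 3 or more. The windows of Ugt1a6a, Ugt1a9 and Nqo1 held 0 matches. A match describes letters in this window and not binding.

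Other detoxification genes were lower in papillary cells. Mgst1, a membrane glutathione transferase, was at 6.32, 6.03 and 6.55 against 10.43, 10.31 and 10.62. Ugt1a6a and Ugt1a9, which encode glucuronosyltransferases, were at 5.90, 5.72 and 5.96 against 10.14, 9.74 and 9.93 and at 4.92, 4.99 and 4.79 against 9.19, 8.61 and 9.06. These genes share their last exons, so probe sets there can read several members, and their values are not independent. Gstm2, a soluble glutathione transferase, differed by -1.71 ± 0.075. Cyp7b1, a hydroxylase of oxysterols and steroids, was higher by 1.68 ± 0.13. Of 21 antioxidant genes, 10 were lower and 3 higher, or 5 higher with the animal as a block. Hmox1, heme oxygenase, was at 7.87, 7.87 and 7.97 against 11.08, 10.85 and 10.96. The metal-binding gene Mt1 (-2.55 ± 0.084) and Selenop, a selenium carrier (-2.51 ± 0.11), were lower, and Prdx4, a peroxidase of the endoplasmic reticulum, was higher by 1.01 ± 0.13.

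Genes of prostaglandin, natriuretic peptide and angiotensin signalling were lower in 14 of 20 cases, with a median of -0.92. Synthesis, reception and removal of prostaglandins all had lower members. Ptgs2, the inducible cyclooxygenase, was at 4.40, 4.35 and 4.74 against 7.47, 7.40 and 8.06. The receptor gene Ptger3 differed by -2.64 ± 0.10. Slco2a1, which takes prostaglandins into cells, was at 7.19, 7.77 and 7.42 against 11.21, 11.48 and 11.24, and Hpgd, which inactivates them, differed by -1.59 ± 0.19. These values did not overlap. Nppc, the gene of C-type natriuretic peptide, was higher by 0.70 ± 0.12. Its receptor gene Npr2 (0.26 ± 0.078) was called higher as well, but not without animal 1, 2 or 3, papillary replicate 1 or 2, or Dlk1- Sca1+ replicate 1 or 3 (adjusted p = 0.0738 to 0.124), which leaves 1 gene higher there.

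Retinoid genes were called in both directions, 5 of 16 higher and 4 lower. Rbp4, the plasma carrier of retinol, was at 6.86, 6.66 and 6.59 against 10.53, 10.48 and 10.63. Cyp26b1, which degrades retinoic acid, was higher, at 11.05, 10.96 and 10.80 against 8.88, 9.24 and 9.30. The receptor genes Rarg (0.63 ± 0.13) and Rara (-0.92 ± 0.11) differed in opposite directions. The cytosolic carrier gene Crabp1 was at 9.82, 10.56 and 10.42 against 7.99, 8.03 and 8.54, with papillary values above in all animals.

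Axon guidance genes, which also act between cells of skin, included 16 of 33 that were higher and 7 that were lower, with a median of 0.18. Plxna4, a receptor of semaphorins, was at 8.99, 8.54 and 8.70 against 6.19, 6.46 and 6.50, higher by 2.36 ± 0.11. Plxnc1, another such receptor, was higher by 2.24 ± 0.13. Efnb2 and Efna5, ephrin ligands, were higher by 2.29 ± 0.17 and 2.28 ± 0.10, while the ephrin receptor genes Epha3 and Epha4 were lower, differing by -2.69 ± 0.11 and -1.37 ± 0.23. Epha3 was at 7.0, 6.72 and 6.83 against 9.44, 9.69 and 9.50. The ephrin genes and the Epha genes named here thus had opposite directions. The slit receptor genes Robo2 (1.69 ± 0.15) and Robo1 (1.06 ± 0.13) were higher. The secreted semaphorins divided as well, with Sema3a (1.49 ± 0.18) and Sema3f (1.48 ± 0.11) higher and Sema3g at 6.01, 6.24 and 6.07 against 9.77, 9.95 and 9.68.

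Among 18 integrin genes, 3 were higher and 6 lower, or 5 higher with the animal as a block. Itga4 was at 8.63, 8.45 and 8.85 against 5.99, 6.14 and 6.21, and Itga8 (1.62 ± 0.16) and Itga9 (1.47 ± 0.11) were higher. Itgb3 (-1.99 ± 0.093) and Itga5, a chain of the fibronectin receptor (-1.05 ± 0.084), were lower. Among 21 cadherin and protocadherin genes, 4 were higher and 2 lower (19% and 9.52%, near the 13.1% and 13.3% of all genes). Cdh4 (2.56 ± 0.14), Cdh6 (2.34 ± 0.14) and Cdh11 (0.91 ± 0.12) were higher, Pcdh10 was higher by 1.83 ± 0.11 and Pcdh19 lower, differing by -1.95 ± 0.23. Of 26 genes of the actin cytoskeleton, 9 were higher and 5 lower, with 5 higher without animal 2 and 4 without animal 3. Acta2, smooth muscle actin, was at 7.27, 7.49 and 7.54 against 9.16, 9.69 and 9.56, below in all 3 animals. Of 13 pericyte and smooth muscle markers, 5 were lower and 1 higher (0 higher without animal 3). Acta2 is itself among the 5, as are Heyl and Notch3, named above with the Notch pathway. The part of pericyte and smooth muscle RNA in the Acta2 difference was not tested.

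Transcription factors of the dermis were called for 23 of 38 members, 13 higher and 10 lower. Maf, a basic leucine zipper factor, was at 9.0, 9.08 and 9.12 against 6.08, 6.02 and 6.12. The homeobox gene Meox2 (2.35 ± 0.17) was higher and its relative Meox1 (-1.86 ± 0.13) lower. Osr2 (2.28 ± 0.13), Tcf4 (1.84 ± 0.085) and Twist1 (1.46 ± 0.084), an early factor of dermal cells, were higher, and En1, a marker of dorsal dermal lineages, differed by 0.73 ± 0.13. Sox18 (-2.47 ± 0.21), Alx4 (-1.76 ± 0.088), Sox9 (-1.76 ± 0.31) and Nfib (-1.70 ± 0.10) were lower. Meox2 was at 7.77, 7.46 and 7.89 against 5.47, 5.23 and 5.38, with no overlap. Genes of the dermal papilla and condensate, the fibroblasts of the hair follicle, were called for 18 of 20 members, 8 higher and 10 lower. The genes that were higher included Rspo3, Lef1, Crabp1 and Bmp4, and those that were lower Sox18, Alx4, Fgf10, Prom1 (-1.11 ± 0.22) and Vcan (-0.63 ± 0.077), so the list as a whole did not lie with either population.

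Cell cycle genes were higher in papillary cells. Of 34 measured, 27 were called higher and 1 lower, with a median of 0.70. Ccna2, a cyclin of the S and G2 phases, was at 10.19, 10.57 and 10.46 against 8.81, 8.69 and 9.05. Kif11, a spindle motor, was at 8.50, 9.06 and 8.97 against 7.58, 7.16 and 7.46, and Cdk1 differed by 1.29 ± 0.11 and Mki67, the gene of the Ki-67 antigen, by 1.26 ± 0.14. Papillary values lay above in each case. Mcm4, the gene called lower, differed by -0.47 ± 0.091 and had an adjusted p of 0.0501 without animal 1. The median of the list was 0.74 without the Dlk1- Sca1+ array of animal 1. Among inhibitors of cyclin-dependent kinases and other regulators of G1, 5 of 18 were higher and 5 lower. Cdkn1c (-1.56 ± 0.073) and Cdkn1a (-1.08 ± 0.10), which encode p57 and p21, were lower, and Cdkn1b, which encodes p27, was higher by 0.63 ± 0.094. Gas6, a ligand named for its rise at growth arrest, was at 6.41, 6.13 and 6.02 against 9.60, 9.28 and 9.22.

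Of 31 respiratory chain genes, 13 were lower and 1 higher, with a median of -0.23. The count of lower genes was 5 without animal 1, 6 without animal 2 and 7 without animal 3. Cox5a had the largest difference among the lower genes, -0.58 (adjusted p = 0.00791). Its adjusted p was 0.0566 without animal 1 and 0.107 without animal 3. Uqcrfs1 and Cox5b each differed by -0.49. The single gene called higher was Cox6c (0.65 ± 0.087), or 2 genes with the animal as a block. These differences were small beside those of the signalling genes above.

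The other populations of the same animals placed these differences. For some genes Dlk1- Sca1+ cells were above both Dlk1+ populations as well as above papillary cells. Cyp1b1 was at 7.88, 8.44 and 8.18 in reticular cells and at 9.97, 10.05 and 9.75 in Dlk1+ Sca1+ cells, and Dlk1- Sca1+ cells were above these by 3.06 ± 0.13 and 1.31 ± 0.13. The 4 populations thus formed a series for Cyp1b1, with papillary cells lowest and Dlk1- Sca1+ cells highest. Adamts18 had the same order, with Dlk1- Sca1+ cells above reticular cells by 3.42 ± 0.19 and above Dlk1+ Sca1+ cells by 1.95 ± 0.19. Tek (1.64 ± 0.11 above Dlk1+ Sca1+ cells), Ugt1a6a (1.87 ± 0.13), Slco2a1 (1.63 ± 0.14) and Lepr (0.57 ± 0.10) followed it too. Sema3g was at 7.35, 7.43 and 7.56 in reticular and at 6.94, 7.55 and 7.19 in Dlk1+ Sca1+ cells, below the 9.77, 9.95 and 9.68 of Dlk1- Sca1+ cells. Genes were named here because these contrasts were called, so the calls are a description. Over all genes, 18.2% were called against reticular cells and 7.36% against Dlk1+ Sca1+ cells. The contrasts share the Dlk1- Sca1+ arrays and are not independent of the main comparison.

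Other genes were lower in Dlk1- Sca1+ cells than in every other population. Meox2 was at 8.87, 8.51 and 8.43 in reticular and 8.22, 7.56 and 7.66 in Dlk1+ Sca1+ cells, so Dlk1- Sca1+ cells differed by -3.24 ± 0.17 and -2.45 ± 0.17. Cacng7, a calcium channel subunit gene, was at 9.27, 9.10 and 8.89 in papillary cells and 6.23, 6.48 and 6.48 in Dlk1- Sca1+ cells, and Dlk1- Sca1+ cells differed from reticular cells by -2.86 ± 0.14. Tac1, the precursor of substance P, was at 9.05, 8.52 and 9.20 against 6.26, 6.56 and 6.78. Thsd4 (2.93 ± 0.11), which encodes a microfibril-associated protein, Prkd1 (2.97 ± 0.22), a protein kinase, Filip1 (3.02 ± 0.16), Arrdc3 (2.55 ± 0.10), Fam171b (2.51 ± 0.19) and Fxyd6 (2.49 ± 0.17), a regulator of sodium pumps, were in the same group. A different pattern held for Fzd4, Plat, Agtr2 and Fabp4, where it was papillary cells that stood apart. Fzd4 was at 9.30, 9.73 and 9.18 in reticular and 10.42, 10.33 and 10.32 in Dlk1+ Sca1+ cells, beside 10.10, 10.22 and 10.20 in Dlk1- Sca1+ cells. Agtr2 was at 11.16, 11.36 and 11.08 and 11.48, 11.44 and 11.47, above the 9.76, 9.95 and 10.22 of Dlk1- Sca1+ cells. Ahr was at 8.59, 8.13 and 8.27 and 7.81, 7.93 and 7.92, near its level in Dlk1- Sca1+ cells and below that in papillary cells.

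Markers of other cell types that were sorted against or lie near the dermis were read last. Mast cell markers were called by limma in 0 of 9 cases (1 at an unadjusted p under 0.05). Their median level was 5.56 in animal 1's Dlk1- Sca1+ array, beside 4.59 and 4.71 in the other Dlk1- Sca1+ arrays, and 4 of the 9 were highest there among the 12 arrays. Without that array or without animal 1, 1 mast cell marker was called higher, and 1 was called lower without Dlk1- Sca1+ replicate 2 or with the mean of probe sets. Erythroid markers were called in 1 of 7 (2 without the Dlk1- Sca1+ array of animal 1) and sebocyte markers in 1 of 6. The sebocyte marker called was Mgst1, named above with the detoxification genes. Of 17 skeletal muscle markers, 2 were higher (1 without animal 3 or with dim genes left out) and 0 lower (3 and 1 at an unadjusted p under 0.05). The count of lower muscle markers was 1 with the animal as a block, with repeated quantile normalization, with limma's trend in variance, with dim genes left out or without animal 1, and 2 with only the 6 arrays. Melanocyte and Schwann cell markers were lower in 6 of 14 cases, and in 2 without the Dlk1- Sca1+ array of animal 1. That count was 1 without animal 1, animal 2 or papillary replicate 1, 2 without papillary replicate 2, and 3 without papillary replicate 3, with limma's robust variance, with dim genes left out or with only the 6 arrays.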

How the data were processed

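Transcripts of sorted dermal fibroblasts of 3 littermate mice aged 2 days were measured on 12 Affymetrix arrays, from RNA of 4500 cells per sample amplified over 21 cycles with 8 µg of cDNA labelled, per the labels' protocols. The authors deposited log2 values, and the submitters' processing notes name RMA and the affy package. The versions and a genome build are not given in the sources used here. Amplification and the RMA floor can compress differences of dim genes, and precision is limited by the number of arrays.

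Of 45037 probe sets that were not controls, 28898 had 1 gene symbol in the platform annotation, 551 several and 15588 none. Of these, 28689 matched a RefSeq gene, with 0 symbols changed. The brightest probe set stood for each of 17097 genes. No filter was used.

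One limma model (version 3.58.1, R 4.3.3) held all 12 arrays and estimated each population's mean, with 8 residual and 4.475 prior degrees of freedom. The animal was not a term in this model. Its SE and p-values therefore do not use the pairing of arrays by animal, which only the fits with the animal as a block do. P-values were adjusted by Benjamini-Hochberg and called under 0.05. The fit was tested on simulated data. The p-values measure the spread between littermates of one litter. Replicate numbers were read as animals, since the labels give numbered littermates. Deviations of papillary and Dlk1- Sca1+ arrays from their means correlated across genes, which are not independent replicates, with r = 0.086, 0.158 and 0.327 in animals 1, 2 and 3.

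The comparison, its members and the gene lists were chosen with earlier results of these data known. Lists are described by counts and medians, without a test. Named are the sorting and marker genes, the 20 genes with the largest difference per direction without overlap, up to 5 called members per list and direction, bright members differing by under 0.5, family members called in both directions, the 15 genes with the largest excess in animal 1's Dlk1- Sca1+ array and the 10 genes per direction that also set Dlk1- Sca1+ cells apart from both other populations. En1, Mki67, Nkd1, Robo1, Sema3a, Sema3f, Wif1, Wnt11, Krt5, Krt14, Cyp1a1, Nqo1 and Idi1 were added after their values were seen. Of 2363 called genes with several probe sets, 32 had one called in the opposite direction. Promoter windows came from RefSeq. Alternatives changed the normalization, probe set rule, filter, variance model, arrays in the fit and the animal as a block, and left out each array or animal.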

Additional observations from a re-analysis of the deposited data

How the results depend on the processing

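The count of called genes was 4292 to 5484 under the planned settings that kept all arrays of the comparison, against 4508, and 3120 to 4171 with 1 array or animal left out. The share of calls that were higher in papillary cells was 46.8% to 51.7% over all settings. With the animal as a block 5484 genes were called, 2730 higher and 2754 lower, and 4502 of the 4508 were kept in the same direction. Apart from the changes given beside the results, the block lost no call of a named gene. Of 348 named genes that were called, 285 were called in every setting. Called genes took the opposite direction in 3 cases, all with the mean of probe sets. Among named genes this was Ramp2, a receptor partner listed as an endothelial marker, at 0.17 (adjusted p = 0.049) with its brightest probe set and -0.18 (adjusted p = 0.0292) with the mean, so its direction is not settled. The call of Ramp2 was lost without any 1 array of the comparison or any 1 animal (adjusted p = 0.087 to 0.295). It was also lost with limma's robust variance, repeated quantile normalization or only the 6 arrays (0.0573 to 0.138). Centring the arrays moved the median of all genes from -0.0033 to 0.01. With 3 arrays per population, and 2 when 1 was left out, genes with small differences such as those of the respiratory chain and of ribosomal proteins changed calls most readily. Of 25 ribosomal protein genes, 4 were called lower (16%, near the 13.3% of all genes), 8 with limma's trend in variance, 2 without animal 1 or papillary replicate 1 or 2, and 1 without animal 2 or 3.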

Other observations

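Imprinted genes, which are expressed from one parental allele and often act on growth, were called lower in papillary cells in 7 of 19 cases and higher in 2. The largest differences were those of Slc38a4 and Cdkn1c. Slc38a4, an amino acid transporter, was at 6.61, 7.04 and 6.36 in papillary cells and at 10.21, 10.08 and 10.07 in Dlk1- Sca1+ cells, and differed by -3.45 ± 0.14 (adjusted p = 1.09e-09). Cdkn1c was at 10.30, 10.33 and 10.29 against 11.83, 11.90 and 11.87. Zim1 differed by -0.74 ± 0.12. The values of these genes did not overlap between the populations. Without animal 3 the counts were 4 lower and 0 higher, and without animal 1 no member was higher. The higher count was 1 without animal 2, papillary replicate 1 or 3, or Dlk1- Sca1+ replicate 1 or 3.

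Tac1, the gene of the substance P precursor, Gria4, a glutamate receptor subunit, and Nptx1, a pentraxin of neurons, were higher in papillary cells, Gria4 at 10.63, 10.56 and 10.66 against 6.57, 6.78 and 7.34 and Nptx1 at 9.34, 8.89 and 8.62 against 5.46, 5.30 and 5.47. Gfra1 and Scn7a, a GDNF co-receptor and a sodium channel, were lower, Gfra1 at 4.76, 4.99 and 4.67 against 9.06, 9.64 and 8.79 and Scn7a at 4.52, 4.89 and 4.88 against 8.94, 8.70 and 9.25. Scn7a is also known from Schwann cells, whose markers are listed above with melanocyte genes, and the part of Schwann cell RNA in its difference was not tested. These genes go in both directions and were set side by side after their values were seen, so they form no list with a count.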
